A study of Mus musculus with 12 samples.

Results

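The mitophagy receptor genes Bnip3, Bnip3l, Fundc1, Fkbp8, Bcl2l13 and Phb2 and the mitophagy kinase gene Pink1 were described in murine adipocytes that carried a truncated form of Semaphorin 4B, with and without norepinephrine (NE). The 7 genes were taken by name from the 48321 genes listed, and all 7 were among the 11998 genes that passed the filter on low values. Bnip3 was selected on its normalized counts in these same libraries, as one of few genes whose response to the construct differed after NE, so its values are given as a description, and its place among those genes is told only as the way it was chosen, not as a test of it. The other 6 genes were added as known mitophagy receptors and factors and were tested together with all other genes.

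The libraries came from brown preadipocytes immortalized with SV40 and stably transduced with a lentivirus that held either the empty pLEX vector (vector) or pLEX with Flag-tagged truncated Sema4B (tSema4B), a mimic of the form that the protease ADAM17 releases. There was 1 puromycin-selected line for each construct. After 8 days of differentiation, cells of both lines were placed in serum-free medium with albumin for 6 h, without addition (unstimulated) or with 2 µM NE, which activates beta-adrenoceptors. This gave 4 groups of 3 libraries (unstimulated vector, unstimulated tSema4B, NE-treated vector and NE-treated tSema4B cells), and the libraries of a group are described as technical replicates, so p-values cover the spread between these libraries only, and the effect of the construct cannot be told apart from other differences between the 2 lines.

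Mitophagy removes mitochondria by enclosing them in autophagosomes. Receptors such as BNIP3 and its relative BNIP3L (NIX) sit in the outer mitochondrial membrane and bind Atg8-family proteins on the forming autophagosome directly, whereas the kinase PINK1 marks damaged mitochondria for the ubiquitin ligase Parkin and for ubiquitin-binding adaptors. Bnip3 is a classical target of the hypoxia-inducible factor HIF-1, and brown adipocytes are rich in mitochondria whose number changes with thermogenic state.

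The promoters of the 3 genes that differed most between the lines are shown because the HIF-1 core motif ACGTG and the shortened site TGACG of the cAMP response element, which NE signaling uses, were searched in them. The sequences come from RefSeq (GRCm38.p6), run from 250 bases before to 50 bases after the start of the gene on its own strand, and have matches on either strand in capitals. Entries were found for 6 of the 7 genes, with none for Bnip3l. The Bnip3 sequence is chr7:138909457-138909756 (minus strand), the Phb2 sequence is chr6:124712039-124712338 (plus strand) and the Bcl2l13 sequence is chr6:120835980-120836279 (plus strand).
Bnip3: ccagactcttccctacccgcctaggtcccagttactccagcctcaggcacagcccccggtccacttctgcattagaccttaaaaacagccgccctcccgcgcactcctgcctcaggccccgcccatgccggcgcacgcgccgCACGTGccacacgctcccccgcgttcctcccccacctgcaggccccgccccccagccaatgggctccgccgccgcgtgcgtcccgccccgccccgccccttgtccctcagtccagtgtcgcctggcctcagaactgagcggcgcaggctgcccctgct
Phb2: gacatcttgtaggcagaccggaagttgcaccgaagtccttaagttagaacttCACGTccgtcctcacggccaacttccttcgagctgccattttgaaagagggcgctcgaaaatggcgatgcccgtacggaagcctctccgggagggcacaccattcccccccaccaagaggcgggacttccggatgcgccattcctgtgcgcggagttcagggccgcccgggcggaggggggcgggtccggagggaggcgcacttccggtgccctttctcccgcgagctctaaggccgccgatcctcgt
Bcl2l13: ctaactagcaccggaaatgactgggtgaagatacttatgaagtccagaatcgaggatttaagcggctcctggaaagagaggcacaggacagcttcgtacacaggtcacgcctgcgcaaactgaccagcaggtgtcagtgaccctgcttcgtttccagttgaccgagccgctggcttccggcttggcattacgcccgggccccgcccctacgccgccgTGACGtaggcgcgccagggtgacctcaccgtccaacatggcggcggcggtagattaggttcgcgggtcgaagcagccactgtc
The Bnip3 promoter held CACGTG, which reads as ACGTG on both strands, with its first match 108 bases before the start. Phb2 held 1 ACGTG on the minus strand, 198 bases before the start, and Bcl2l13 held 1 TGACG, 33 bases before the start. Of the other members, Fkbp8 held 1 ACGTG 65 bases before its start, and neither motif was found in the windows of Fundc1 and Pink1. The Fundc1 window (chrX:17571958-17572257, minus strand) lies inside the gene as GENCODE places it (chrX:17556564-17572325). It therefore leaves out the bases before that start. The motif letters are common, since ACGTG was found in 19.6% of 32851 promoters of the same length, TGACG in 20.8% and CACGTG in 7.15%, so a match is a description of the window only.

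Bnip3 (ENSMUSG00000078566.8, chr7:138890836-138909519, minus strand) was lowest in unstimulated tSema4B cells. Its normalized counts, which are reads divided by the size factor of the library, were 517, 628 and 525 in vector unstimulated libraries and 185, 226 and 134 in tSema4B unstimulated libraries. After NE they were 675, 631 and 714 in vector libraries and 490.1, 481 and 474 in tSema4B libraries. Every library of unstimulated tSema4B cells was below every other library, and none of the 4 groups overlapped with another. The values rested on 98 to 155 reads per library in unstimulated tSema4B cells and on 359 to 1090 reads in the other groups.

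The group means of Bnip3 were 557 ± 62.0 in vector unstimulated, 182 ± 45.9 in tSema4B unstimulated, 673 ± 41.5 in vector NE and 482 ± 7.89 in tSema4B NE libraries (SD, n = 3). In unstimulated cells the mean was therefore 3.07-fold lower with tSema4B than with vector (log2 fold change -1.64), and after NE it was 1.40-fold lower (log2 fold change -0.48). NE-treated cells had 1.21-fold more Bnip3 than unstimulated cells with vector (log2 fold change 0.28) and 2.65-fold more with tSema4B (log2 fold change 1.43). The deficit of Bnip3 in tSema4B cells was thus smaller after NE, with a difference between both log2 fold changes of 1.16. All log2 fold changes here are differences between mean log2(normalized count + 1).

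That difference is the value by which Bnip3 was chosen. With limma, 3 of the 11998 genes (0.0250%) passed an adjusted p of 0.05 for a construct effect that differs after NE, namely Lpl (lipoprotein lipase), Idh1 (cytosolic isocitrate dehydrogenase) and Bnip3, with log2 differences of 0.82, 0.74 and 1.16, and 1227 genes (10.2%) passed an unadjusted p of 0.05. Bnip3 was the gene just inside this threshold, and the next gene by unadjusted p was the mitochondrial ribosomal RNA mt-Rnr2 with a log2 difference of -0.45 and an adjusted p of 0.113 that it shares with other genes, Ldha and Pdk1 among them. The place of Bnip3 in this set was not stable, because it remained in the set in 10 of 11 alternatives that kept all 12 libraries but in only 2 of the 12 that left out 1 library, and with no filter on low values 0 genes passed. The log2 difference itself lay between 0.96 and 1.33 when any 1 library was left out. All these fits reuse the libraries by which Bnip3 was chosen, so they do not test its size or its place. The number of genes in the set was 4 with edgeR and 101 with DESeq2, both of which held Bnip3.

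**Figure D1:**
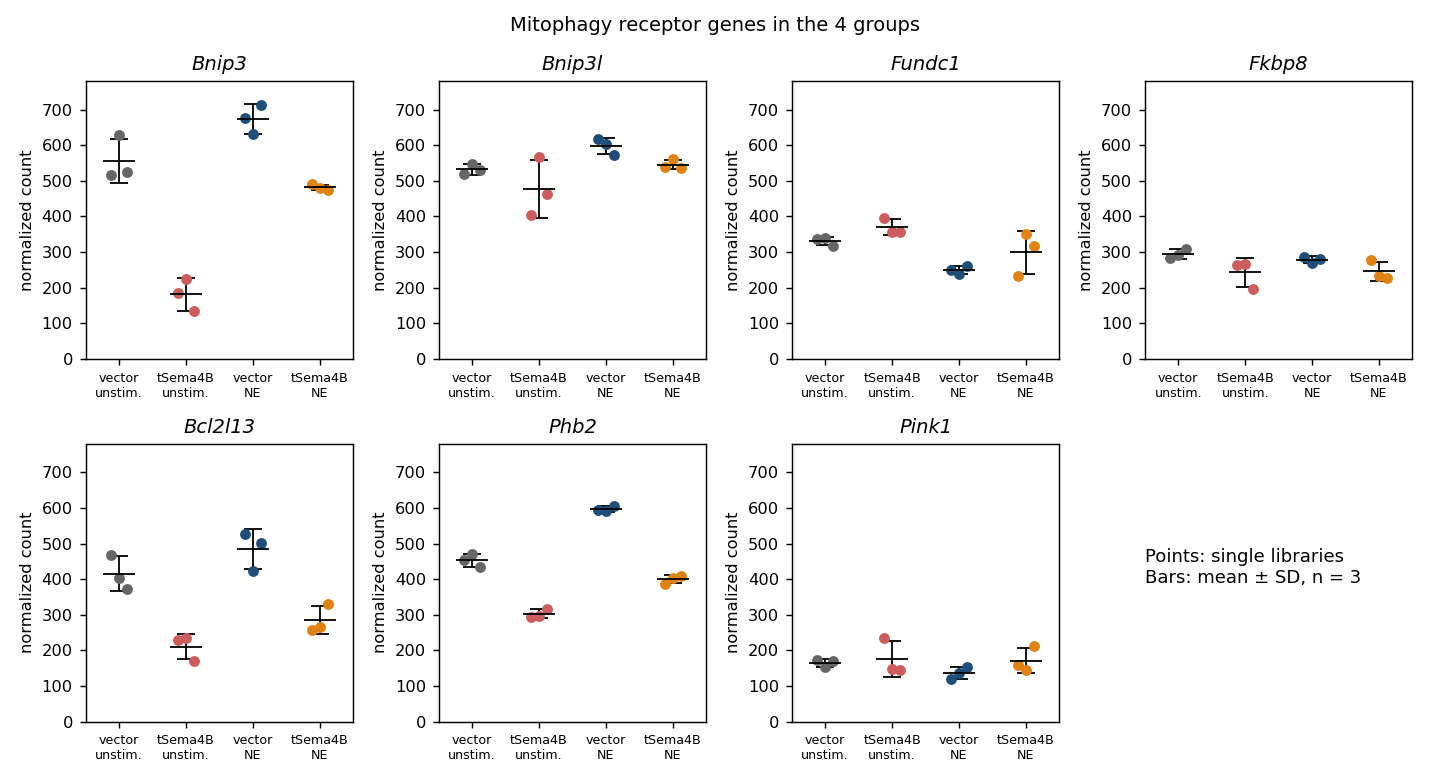
Normalized counts of the 7 genes (vertical axis, same scale in each panel) in the 4 groups (horizontal axis), with points for single libraries and bars for mean ± SD (n = 3). Bnip3 in unstimulated tSema4B cells had a mean of 182, against 482 to 673 in the other groups, while Bnip3l means lay between 478 and 597.

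Bnip3l (ENSMUSG00000022051.15, chr14:66985239-67008877, minus strand) encodes the closest relative of BNIP3, a receptor best known for clearing mitochondria from maturing red blood cells. Its normalized counts were 518, 548 and 530.4 in vector unstimulated, 404, 566 and 463 in tSema4B unstimulated, 616, 602 and 572 in vector NE and 539, 561 and 536 in tSema4B NE libraries. The unstimulated groups overlapped, and so did the tSema4B groups, while all vector NE libraries were above those of vector unstimulated and tSema4B NE cells. The log2 fold change of tSema4B against vector was -0.17 without stimulation (95% interval -0.40 to 0.06, limma adjusted p = 0.361) and -0.13 after NE (95% interval -0.36 to 0.10, limma adjusted p = 0.451). NE against unstimulated gave 0.16 with vector (limma adjusted p = 0.398) and 0.21 with tSema4B (limma adjusted p = 0.313), and the construct effect differed by 0.04 after NE (95% interval -0.28 to 0.37). None of these passed the threshold.

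The ratio of Bnip3 to Bnip3l normalized counts within a library, not corrected for length, set both relatives side by side. It averaged 1.04 in vector unstimulated libraries, 0.382 in tSema4B unstimulated, 1.13 in vector NE and 0.883 in tSema4B NE libraries. In unstimulated tSema4B cells it ran from 0.290 to 0.457, below the lowest ratio of any other group, 0.857. A processed pseudogene on chromosome 12, Bnip3l-ps, shares 539 of its 1033 windows of 100 bases (52.2%) with Bnip3l, so reads could be split between them, and Bnip3l values are uncertain to that extent. Bnip3l-ps itself had group means of 83.0 to 90.3 normalized counts and passed in no comparison. Bnip3l shares none of its 100-base windows with Bnip3. Of the exon bases of Bnip3, 504 of 2265 overlap Gm45507 on the opposite strand, and the strand setting of the counting is not given in the sources used here. Gm45507 is not among the genes listed, so its own level could not be read.

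Phb2 (ENSMUSG00000004264.17, chr6:124712336-124716950, plus strand) encodes prohibitin 2, an inner membrane protein that acts as a receptor once the outer membrane is breached. Its normalized counts were 455, 471 and 433 in vector unstimulated, 294, 297 and 318 in tSema4B unstimulated, 593, 590.3 and 606 in vector NE and 387, 402 and 409.6 in tSema4B NE libraries. No group overlapped with another, with the order vector NE, vector unstimulated, tSema4B NE and tSema4B unstimulated from high to low, the same order of means as Bnip3.

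The log2 fold change of Phb2 with tSema4B was -0.58 in unstimulated cells (95% interval -0.79 to -0.37, limma adjusted p = 0.000307) and -0.58 after NE (95% interval -0.79 to -0.37, limma adjusted p = 0.000252). With NE it rose by 0.40 in vector cells (limma adjusted p = 0.0116) and by 0.40 in tSema4B cells (limma adjusted p = 0.0177). The construct effect after NE differed from that in unstimulated cells by 0.00 (95% interval -0.29 to 0.30), against 1.16 for Bnip3, and these 2 values were not tested against each other. The rise with NE was close to the threshold. In vector cells the limma adjusted p was 0.0518 without vector unstimulated replicate 3 and 0.0583 without vector NE replicate 3, and in tSema4B cells it was 0.0565, 0.0504 and 0.0554 without tSema4B unstimulated replicate 1, tSema4B NE replicate 2 and tSema4B NE replicate 3, and 0.109 when only the 6 tSema4B libraries were fitted.

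Bcl2l13 (ENSMUSG00000009112.4, chr6:120836212-120892842, plus strand) encodes an outer membrane receptor of the BCL-2 family, the mammalian counterpart of yeast Atg32. Its normalized counts were 469, 403 and 374 in vector unstimulated, 229, 234 and 169.8 in tSema4B unstimulated, 528, 422 and 503 in vector NE and 257, 267 and 329 in tSema4B NE libraries. All tSema4B libraries were below all vector libraries in both conditions. Vector NE and vector unstimulated libraries overlapped, and the tSema4B groups did not.

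Bcl2l13 was 1.97-fold lower with tSema4B in unstimulated cells, by a log2 fold change of -0.98 (SE 0.145, limma adjusted p = 4.58e-05), and 1.70-fold lower after NE, by -0.77 (SE 0.145, limma adjusted p = 0.000576). NE gave 0.44 in tSema4B cells (limma adjusted p = 0.0780) and 0.22 in vector cells (limma adjusted p = 0.381), neither of which passed. The construct effect differed by 0.22 after NE (95% interval -0.21 to 0.64, limma adjusted p = 0.782). Both differences between the lines passed in all 18 alternatives run for each. Exons of Bcl2l13 overlap those of Bid on the opposite strand for 628 of 9089 bases, and Bid had at most 55.1 normalized counts in any library.

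Fundc1 (ENSMUSG00000025040.13, chrX:17556564-17572325, minus strand) encodes a further outer membrane receptor tied to hypoxia through its dephosphorylation. Its normalized counts were 337, 339 and 318 in vector unstimulated, 397, 356 and 357 in tSema4B unstimulated, 249.95, 238 and 262 in vector NE and 232, 350.3 and 316 in tSema4B NE libraries. The groups with NE did not overlap with the unstimulated group of the same line, and both lay lower, opposite to Phb2. The log2 fold change with NE was -0.40 in vector cells (95% interval -0.69 to -0.12, limma adjusted p = 0.0578) and -0.32 in tSema4B cells (95% interval -0.61 to -0.04, limma adjusted p = 0.177). Neither passed, although the value in vector cells passed in 7 of 18 alternatives, among them DESeq2 (adjusted p = 0.0295) and edgeR (adjusted p = 0.0462). tSema4B against vector gave 0.16 in unstimulated cells (limma adjusted p = 0.507) and 0.24 after NE (limma adjusted p = 0.235, and 0.0257 without tSema4B NE replicate 1).

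Fkbp8 (ENSMUSG00000019428.16, chr8:70527724-70535328, plus strand) encodes an anchored immunophilin of the outer membrane that binds LC3. Its normalized counts ran from 197 to 308 over the 12 libraries, with group means of 294 ± 13.0 in vector unstimulated, 243 ± 39.8 in tSema4B unstimulated, 279 ± 8.96 in vector NE and 246 ± 26.8 in tSema4B NE libraries (SD, n = 3). The unstimulated groups did not overlap, and the tSema4B group was the lower. The log2 fold change of -0.29 (95% interval -0.57 to -0.0035) did not pass (limma adjusted p = 0.184), nor did -0.19 after NE (limma adjusted p = 0.367). With NE it gave -0.08 in vector cells (limma adjusted p = 0.801) and 0.02 in tSema4B cells (limma adjusted p = 0.954).

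Pink1 (ENSMUSG00000028756.12, chr4:138313409-138326307, minus strand) encodes the kinase of the ubiquitin-dependent arm. Its normalized counts ran from 120.9 to 234, with group means of 166 ± 11.7 and 176 ± 50.1 in unstimulated vector and tSema4B cells and of 137 ± 16.8 and 172 ± 35.3 after NE (SD, n = 3). All 4 groups overlapped with one another. Pink1 passed in no comparison, with log2 fold changes of 0.05 (95% interval -0.34 to 0.45) and 0.31 (95% interval -0.09 to 0.70) for tSema4B against vector in unstimulated and NE-treated cells and of -0.27 (95% interval -0.67 to 0.12) and -0.02 (95% interval -0.41 to 0.38) for NE in vector and tSema4B cells. Intervals of this width leave room for changes in either direction.

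Counted over the 6 members other than Bnip3, 2 were lower with tSema4B in unstimulated cells (Bcl2l13 and Phb2) and 0 higher at a limma adjusted p of 0.05, where 7.39% of all genes tested were lower and 5.64% higher. The same 2 were lower after NE, where 11.2% of all genes tested were lower and 9.79% higher. Of the 6, only Phb2 passed with NE, higher both in vector cells (6.82% of all genes tested higher and 4.78% lower) and in tSema4B cells (3.68% higher and 2.58% lower). None of these 6 also reached a log2 fold change of 1, which 3.82% and 5.76% of all genes tested did between the lines without and with NE and 2.63% and 2.07% with NE in vector and tSema4B cells. For the difference of the construct effect 0 of 6 passed with limma, with 0 also at an unadjusted p of 0.05, and none passed with edgeR or DESeq2. Groups did not overlap for 4 of 6 members between the lines in unstimulated cells (29.4% of all genes tested), 3 after NE (37.7%), 3 with NE in vector cells (33.3%) and 3 with NE in tSema4B cells (20.7%). The members were not tested as a group against these backgrounds.

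**Figure D2:**
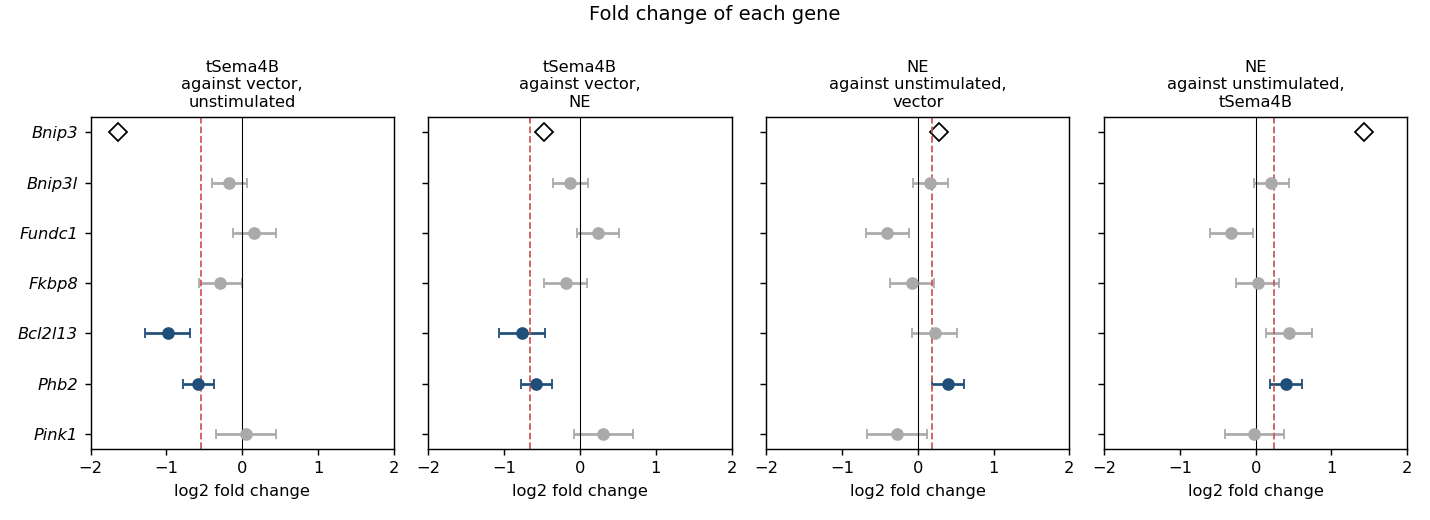
Log2 fold changes (horizontal axes) of the 7 genes in the 4 comparisons, with bars for 95% limma intervals, dark points for an adjusted p of 0.05 or less, an open diamond for Bnip3 (not tested) and a dashed line at the median of 14 genes of mitochondrial content. In unstimulated cells Phb2 (-0.58) lay near that median of -0.54, Bcl2l13 (-0.98) and Bnip3 (-1.64) lay below it, and Bnip3l (-0.17) lay above it, whereas after NE the median was -0.66 and Bnip3 (-0.48) lay above it.

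Levels were compared between genes per kilobase of exon. The length counted every annotated exon base of a gene over all its transcripts, which can exceed the length of the transcripts present. It was 2265 bases for Bnip3, 3718 for Phb2 and 4529 for Fkbp8, so the order depends on the annotation. Over the 12 libraries the mean normalized count per kilobase was 209 for Bnip3, 139 for Bnip3l, 133 for Fundc1, 118 for Phb2, 60.8 for Pink1, 58.6 for Fkbp8 and 38.4 for Bcl2l13. By this measure Bnip3 had the highest value of the members over all libraries. In unstimulated tSema4B cells it did not, and stood at 80.2 per kilobase against 124 for Bnip3l, 157 for Fundc1 and 81.5 for Phb2. The group means of Bnip3l (124 to 155 per kilobase), Fundc1 (106 to 157) and Phb2 (81.5 to 160.5) overlapped, as did those of Pink1 (51.4 to 65.7) and Fkbp8 (53.7 to 65.0), so the order of these neighbours depends on the group.

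The genes whose profile was most like that of Bnip3 were named by Pearson correlation of log2(normalized count + 1) over the 12 libraries, among 8251 genes with a mean of at least 50 normalized counts. They were Ldha (lactate dehydrogenase A, r = 0.963), Reep5 (an endoplasmic reticulum shaping protein, r = 0.963), Htra3 (a secreted serine protease, r = 0.946), Clstn3 (calsyntenin 3, r = 0.946) and Pgd (an enzyme of the pentose phosphate pathway, r = 0.941). The points share lines, treatments and depth, so these are descriptions, and 0 of the 5 were among the 5 most alike by Spearman correlation. Ldha had means of 5971 ± 409 in vector unstimulated, 3137 ± 146 in tSema4B unstimulated, 7821 ± 270.1 in vector NE and 5751 ± 463 in tSema4B NE libraries (SD, n = 3). Clstn3 went from 78.8 ± 16.4 to 5.76 ± 1.28 between the unstimulated lines, a larger step than that of Bnip3. Among the members, Phb2 (r = 0.882) and Bcl2l13 (r = 0.881) were the most like Bnip3, ahead of Bnip3l (r = 0.747) and Fkbp8 (r = 0.607), while Pink1 (r = -0.306) and Fundc1 (r = -0.653) ran the other way.

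**Figure D3:**
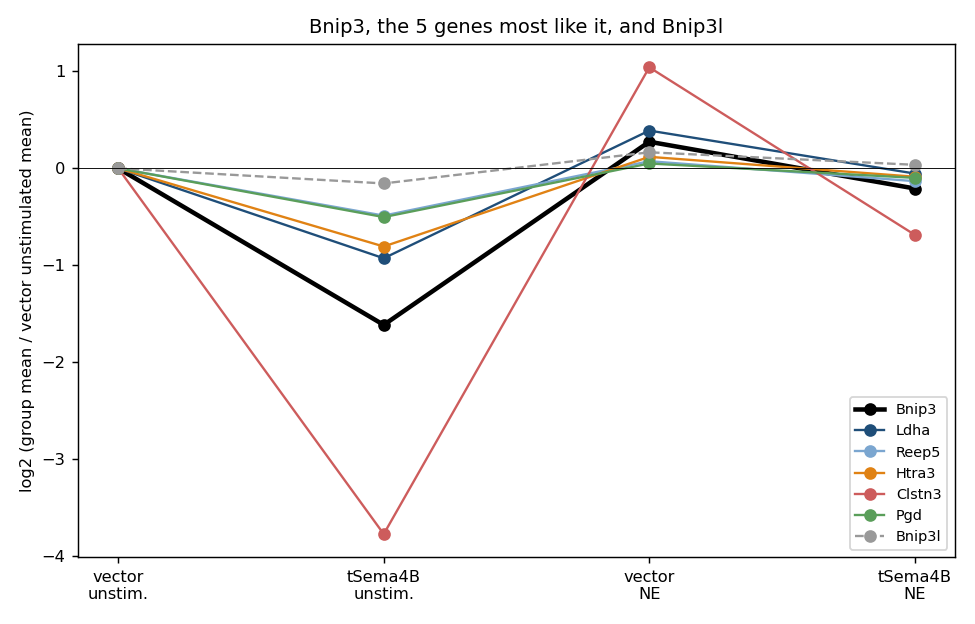
Log2 ratio of each group mean to the vector unstimulated mean (vertical axis) in the 4 groups (horizontal axis) for Bnip3, the 5 genes with the highest correlation to it and Bnip3l. The lines join groups for reading only. All 5 genes and Bnip3 were lowest in unstimulated tSema4B cells, and Clstn3 spanned the widest range, from 5.76 to 162 normalized counts.

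HIF-1 target genes were compared with Bnip3, because Bnip3 belongs to that program. Of 29 tested targets other than the members, 9 were lower and 1 higher with tSema4B in unstimulated cells, where 7.39% of all genes tested were lower and 5.64% higher, with a median log2 fold change of -0.20 against 0.00 over all genes tested. Hk2 (hexokinase 2), Pdk1 (a pyruvate dehydrogenase kinase) and Pfkfb3 (an activator of glycolysis) were the lowest of those that passed. Their log2 fold changes were -2.43, -1.56 and -1.46 (limma adjusted p = 0.00198, 6.31e-07 and 0.000936). After NE, 9 were lower and 2 higher (6 and 4 with libraries scaled to the same total), where 11.2% of all genes tested were lower and 9.79% higher, with a median of -0.34 and with Hk2, Pfkfb3 and Higd1a (a mitochondrial hypoxia-induced protein) at -1.96, -1.25 and -0.95 (limma adjusted p = 0.00772, 0.00280 and 0.000694).

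NE raised 9 of the 29 targets in vector cells and 11 in tSema4B cells and lowered none at a limma adjusted p of 0.05. Of all genes tested, 6.82% were higher and 4.78% lower with NE in vector cells, and 3.68% and 2.58% in tSema4B cells. The median log2 fold changes were 0.39 and 0.49, against -0.02 and 0.00 over all genes tested. In vector cells the largest among those that passed were Ak4 (1.27), Bhlhe40 (0.91) and Higd1a (0.88), with limma adjusted p of 0.0464, 0.00157 and 0.00295. In tSema4B cells the largest among those that passed were Pfkfb3 (1.06), Pdk1 (1.06) and Ldha (0.87), with limma adjusted p of 0.0245, 0.000320 and 3.67e-08. Pdk1, like Bnip3, was low in unstimulated tSema4B cells, with means of 369.6 ± 31.2 and 125 ± 17.9 in unstimulated vector and tSema4B cells and of 368 ± 30.4 and 266 ± 72.0 after NE (SD, n = 3). Its construct effect differed by 1.06 after NE and that of Ldha by 0.48, neither of which passed with limma (adjusted p = 0.113 for each). Over the 29 targets this difference of effects had a median of 0.04, with 15 above 0 and 14 below, against 0.01 over all genes tested. None of the 29 targets passed for that difference with limma or edgeR, 4 of 29 did at an unadjusted p of 0.05 (10.2% of all genes tested), 1 did with equal totals over all genes or quantile normalization, and 3 did with DESeq2, which called 101 genes in all.

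**Figure D4:**
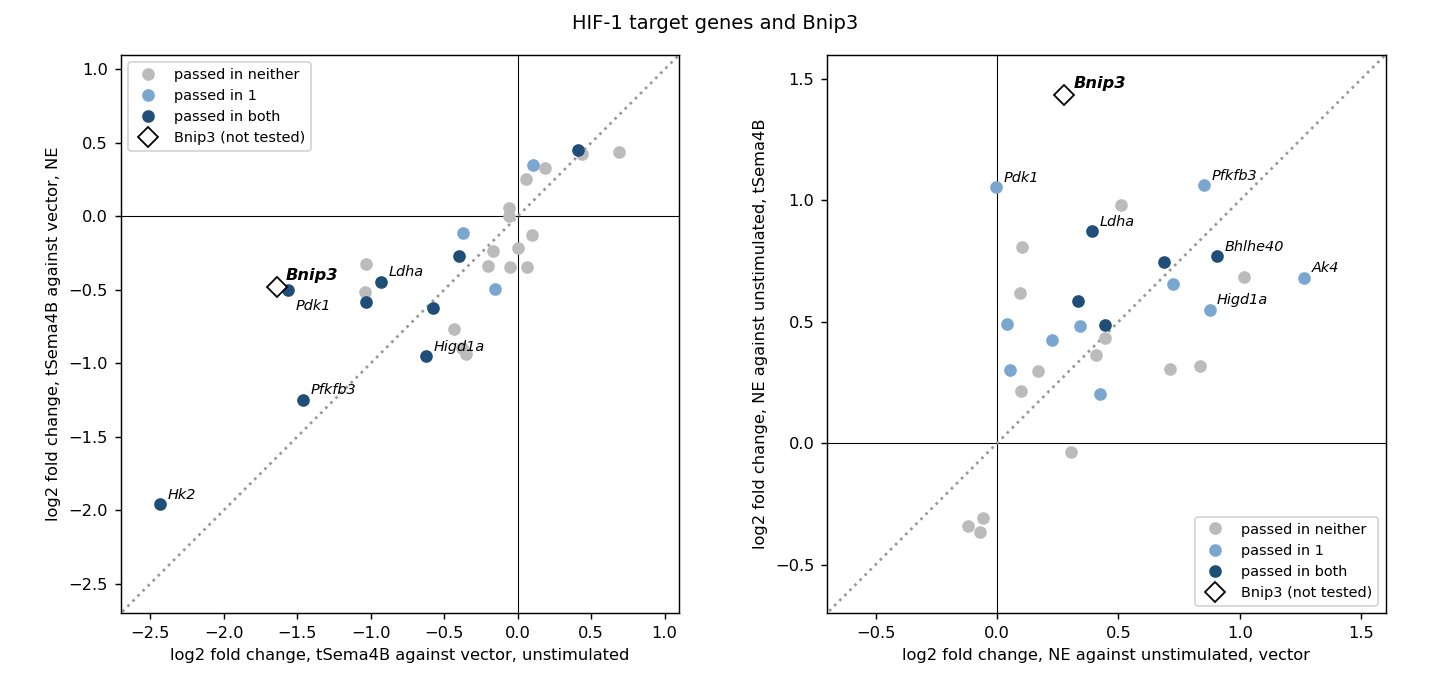
Log2 fold changes of 29 HIF-1 target genes (circles, colored by whether they passed in neither, 1 or both comparisons) and of Bnip3 (open diamond, not tested), with NE-treated against unstimulated cells for the construct effect on the left and tSema4B against vector cells for the NE effect on the right. The dotted line marks equal values, and 9 genes passed in both comparisons on the left and 5 on the right.

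Among 11 regulators of Bnip3 transcription, Hif1a, the oxygen-regulated subunit of HIF-1, rose with NE in both lines, by 0.57 in vector cells (limma adjusted p = 0.00204) and 0.60 in tSema4B cells (limma adjusted p = 0.00198). It had means of 673 ± 107 and 719 ± 94.1 in unstimulated vector and tSema4B cells and of 995 ± 39.1 and 1086 ± 101 after NE (SD, n = 3). The log2 fold change between the lines was 0.10 in unstimulated cells (limma adjusted p = 0.648) and 0.12 after NE (limma adjusted p = 0.495). Of the other regulators only Arnt, the partner subunit of HIF-1, passed, at 0.47 for tSema4B against vector after NE (limma adjusted p = 0.00551). In that comparison 9.09% of the list passed, against 21.0% of all genes tested. The share of the list was also 9.09% with NE in each line, against 11.6% of all genes tested in vector and 6.25% in tSema4B cells. Between the unstimulated lines it was 0%, against 13.0%.

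The members work with further parts of the mitophagy machinery. Park2, the gene of Parkin, had 0 to 1 reads per vector unstimulated library and 0 in all other libraries, so it was not tested. Of 13 tested genes of the ubiquitin-dependent arm and of autophagy cargo adaptors, 2 were higher and 1 lower with tSema4B in each condition. This is 23.1% of the list, against 13.0% of all genes tested in unstimulated cells and 21.0% after NE, and the balance turned to 1 higher and 2 lower in unstimulated cells with equal totals over nuclear genes and to 2 and 2 after NE with that scaling, edgeR and DESeq2. Sqstm1 (the cargo adaptor p62) was higher by 0.33 in unstimulated cells and 0.40 after NE (limma adjusted p = 0.00156 and 0.000174), and Calcoco1 (an autophagy adaptor) was higher by 0.36 and 0.51 (limma adjusted p = 0.0420 and 0.00279). Tax1bp1 was lower by a log2 fold change of -0.35 in unstimulated cells, and Tomm7, a subunit that holds PINK1 at the outer membrane, by -0.63 after NE (limma adjusted p = 0.0102 and 0.00899). With NE, Calcoco1 fell by 0.39 in vector cells (limma adjusted p = 0.0287), and Sqstm1 fell by 0.38 in vector cells and by 0.31 in tSema4B cells (limma adjusted p = 0.000725 and 0.00611).

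The 5 Atg8-family genes, whose proteins the receptors bind, did not pass between the unstimulated lines. After NE, Map1lc3b was higher with tSema4B by 0.25 and Gabarapl1 lower by -0.41 on the log2 scale (limma adjusted p = 0.0392 and 0.0167), and Gabarapl1 rose by 0.38 with NE in vector cells (limma adjusted p = 0.0369). Map1lc3a, Gabarap and Gabarapl2 passed in no comparison. Of 14 genes whose products modify, bind or turn over the receptors, 1 passed in any comparison, the small GTPase Rheb, which lay lower with tSema4B after NE (-0.41, limma adjusted p = 0.0126). This is 7.14% of the list in that comparison, against 21.0% of all genes tested. The share of the list was 0% between the unstimulated lines and with NE in vector and tSema4B cells, against 13.0%, 11.6% and 6.25% of all genes tested. Of 11 fission and fusion genes, Immt, an organizer of cristae, was lower with tSema4B in both conditions (-0.82 and -0.56, limma adjusted p = 6.75e-05 and 0.00277), and Opa1, an inner membrane fusion factor, was lower in unstimulated cells (-0.40, limma adjusted p = 0.0411). This is 18.2% of the list in unstimulated cells and 9.09% after NE, against 13.0% and 21.0% of all genes tested. Of 23 autophagosome formation genes, 3 were lower in unstimulated tSema4B cells and 3 higher and 2 lower after NE, which is close to the share of all genes tested that passed (13.0% and 21.0%). Atg3, which attaches lipid to Atg8 proteins, was lower in both (-0.68 and -0.58, limma adjusted p = 0.00108 and 0.00307). Wipi1 and Pik3r4 were higher after NE (0.78 and 0.72, limma adjusted p = 0.000871 and 0.00535). For NE against unstimulated cells, 0 of the 23 passed in vector cells, against 11.6% of all genes tested. In tSema4B cells only Rb1cc1 passed, at -0.44 (limma adjusted p = 0.0452), which is 4.35% of the list against 6.25%.

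Markers of mitochondrial content and of cell state moved with the same lines. Of 14 mitochondrial content genes, 10 were lower with tSema4B in unstimulated cells and 10 after NE, which is 71.4% of the list each time against 13.0% and 21.0% of all genes tested, with medians of -0.54 and -0.66 on the log2 scale. Cycs (cytochrome c) and Cs (citrate synthase) were lower by -1.47 and -1.09 in unstimulated cells (limma adjusted p = 0.00688 and 7.23e-09). With NE 4 were higher and 2 lower in vector cells and 3 were higher in tSema4B cells, where 11.6% and 6.25% of all genes tested passed. The log2 fold changes of Phb2 and Bcl2l13 between the lines can be read against these medians. The share of counts on mitochondrially encoded genes was 13.4% to 16.7% in vector libraries and 6.91% to 7.89% in tSema4B libraries.

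Of 12 tested brown adipocyte markers, 10 were lower with tSema4B in each condition, among them Ucp1, Cox7a1 and Adrb3. This is 83.3% of the list, against 13.0% of all genes tested in unstimulated cells and 21.0% after NE. The count is a description, since it includes genes that met the filter on low values only through groups where they were high. Examples are Cox7a1, which met it only through vector libraries, and Ucp1, which met it only with NE-treated libraries. The summed normalized counts of the markers ran from 32827 to 36321 in vector unstimulated and 5247 to 7828 in tSema4B unstimulated libraries. After NE they ran from 46230.0 to 58731 in vector and 9317 to 10703 in tSema4B libraries. Most of this sum came from Fabp4 and Lpl, genes of adipocytes in general, with Fabp4 means of 24034 in vector unstimulated and 40898 in vector NE cells. Single markers went other ways with NE in vector cells, where 2 passed as higher and 2 as lower (Plin1 at -0.97 and Pparg at -0.71, limma adjusted p = 0.0300 and 0.0146). In tSema4B cells 4 passed as higher with NE and 0 as lower. This is 33.3% of the list in each line, against 11.6% of all genes tested in vector and 6.25% in tSema4B cells. Ucp1 had means of 12.1 ± 2.98 and 276 ± 14.5 in vector cells without and with NE, was at 0 in unstimulated tSema4B libraries and had 62.9 ± 3.10 after NE (SD, n = 3), and Dio2 was at 0 in all libraries. Of 10 preadipocyte and fibroblast markers, 7 were higher with tSema4B in unstimulated cells and 8 after NE. This is 70% and 80% of the list, against 13.0% and 21.0% of all genes tested. With NE 1 was higher and 5 were lower in each line, which is 60% against 11.6% in vector and 6.25% in tSema4B cells. Their summed normalized counts ran from 21554 to 21772 in vector unstimulated and 38352 to 44157 in tSema4B unstimulated libraries. After NE they ran from 17210.0 to 19191 in vector and 35403 to 37916 in tSema4B libraries. In bulk libraries fewer cells of a type and less RNA per cell cannot be told apart, and the part of cell state in the values of Bnip3, Phb2 and Bcl2l13 was not tested. The macrophage markers Ptprc and Adgre1 and the endothelial marker Kdr were at 0 in all libraries, and the summed levels of 6 macrophage and 6 endothelial markers stayed at or below 24.6 and 23.3 normalized counts. Csf1r had 0 to 2 reads per unstimulated library and 9 to 22 per NE-treated library, which differ in depth, and it met the filter on low values only through NE-treated libraries, so no test of it is given.

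Depth was 2000780 to 5409583 reads on genes per library, with vector libraries deeper than tSema4B libraries in each condition. With all libraries thinned to the shallowest, the log2 fold change of Bnip3 between the lines after NE moved from -0.48 to -0.34, and the part of depth in its values was not tested further. Sema4b itself, the check of the construct, had means of 116797 ± 6692 normalized counts in vector unstimulated, 281514 ± 31108 in tSema4B unstimulated, 74266 ± 8219 in vector NE and 234276 ± 32374 in tSema4B NE libraries (SD, n = 3), which counts endogenous and construct reads together. The tSema4B mean was 2.41-fold the vector mean in unstimulated cells and 3.15-fold after NE, and the empty-vector line itself had 2.04% to 4.02% of its reads on Sema4b, against 7.01% to 10.2% in the tSema4B line.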

How the data were processed

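RNA-seq data from 12 libraries in 4 groups were used, with groups taken from the labels. Per the methods, cDNA was made by SMART-Seq2 and Nextera XT and read as single ends, and the authors screened reads with FastQ Screen, aligned them with STAR 2.7.9a to GRCm38.p4 (mm10) and counted them with htseq-count. The deposited signal is a normalized count per gene, the reads divided by the DESeq2 size factor of the library. The annotation, strand setting and treatment of multimapped reads are not given in the sources used here. Divided by the value of 1 read, 100% of the non-zero values of each library came out whole (tolerance 0.01), so reads were recovered for edgeR and DESeq2. Gene positions and overlaps came from a GENCODE annotation of GRCm38, and promoters from RefSeq.

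A gene was tested where 3 or more libraries reached 10 normalized counts (11998 genes). Values were transformed as log2(normalized count + 1), and limma 3.58.1 in R 4.3.3 fitted all 4 groups together, with variances moderated along a trend on abundance. Two-sided p-values were adjusted by Benjamini-Hochberg across these genes, and a gene passed at an adjusted p of 0.05 or less. Alternatives were other pseudocounts (0.5 and 10), other filters (none, and 50 normalized counts), equal totals over all genes or nuclear ones, quantile normalization, edgeR 4.0.16 and DESeq2 1.42.0, fits to 6 libraries, a replicate block, reads thinned to the shallowest library, an added log2 fold change of 1, and each library left out. The scripts were tested on simulated data.

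The members and the gene lists were chosen with earlier results of these data known. Named genes are the members, the 5 genes most like Bnip3, at most 3 passing genes of each list and comparison with the largest log2 fold change, every gene of a list of 5 or fewer, and Sema4b. Genes outside the rule are Idh1 and mt-Rnr2, named for their place at the threshold, and Pparg, named as lower with NE in vector cells. These genes were picked after their values were seen, as were the differences of effects of Pdk1 and Ldha, which are outside the rule as well. Markers at 0 in all libraries (Dio2, Ptprc, Adgre1 and Kdr) and the genes that overlap or resemble members (Bid, Gm45507 and Bnip3l-ps) are also outside it. Park2, named because it was hardly detected, is outside it too. Of the ubiquitin-dependent list, 13 of 15 genes were tested. Protein sequences were not used here.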

Additional observations from a re-analysis of the deposited data

Results flagged for a closer look

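The construct effect on Bnip3 differed between NE-treated and unstimulated cells by 1.16 on the log2 scale, with -0.48 after NE and -1.64 without. Bnip3 was chosen for this value, so its being singled out again adds nothing. The same difference was 0.82 for Lpl, whose product lipoprotein lipase splits the triglycerides of lipoproteins, with means of 7222 and 1902 normalized counts in unstimulated vector and tSema4B cells and of 8355 and 3887 after NE (limma adjusted p = 0.00399). Lpl is the gene of the lists used here whose difference of effects passed the test across all genes, and Idh1, which is in none of these lists, also passed with 0.74. Groups of 3 libraries are too small for the test of single outlying samples, which was not run.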

How the results depend on the processing

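Over the 6 members other than Bnip3, 533 alternative values kept their direction and their side of the threshold, 23 changed sign, 8 newly passed and 6 no longer passed. For Bnip3, which has no test here, 93 values stayed within the spread between replicates and 2 moved by more. The 2 were the log2 fold change after NE, at -0.38 with equal totals over all genes and -0.34 with reads thinned. With an added log2 fold change of 1, the count of members passing was 0 in all comparisons. The count for NE in vector cells was 2 with a filter at 50, equal totals over all or nuclear genes, quantile normalization, edgeR, DESeq2 and only the 6 libraries compared, and 0 to 1 with a library left out. The count for NE in tSema4B cells was 0 with only the 6 libraries compared and 0 to 1 with a library left out. Values near 0 changed sign. Pink1 between unstimulated lines was -0.036 with equal totals over nuclear genes and -0.17 to 0.17 with a library left out. Pink1 with NE in tSema4B cells was 0.0080 and 0.0033 with equal totals over all and over nuclear genes, 0.045 with reads thinned and -0.18 to 0.21 with a library left out, and Fkbp8 there was -0.12 to 0.10. For the difference of effects, the range with a library left out was -0.073 to 0.17 for Bnip3l, -0.044 to 0.25 for Fundc1, -0.043 to 0.18 for Fkbp8 and -0.026 to 0.036 for Phb2, which was -0.00135 with a pseudocount of 10. The cause was not tested.

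Replicate numbers did not pair libraries, since same-numbered libraries had correlations of -0.047 to 0.028 over 18 pairs and 0 were over 0.1. With the replicate number as a block the counts of members passing stayed at 2, 2, 1, 1 and 0. Since every group holds each number once, the block leaves the log2 fold changes as they are (1.16 for the difference of Bnip3) and changes their errors only. Genes with a difference of effects numbered 3 in the main model, 0 with no filter, 101 with DESeq2, 6 with thinned reads and 1 to 31 with a library left out, and Bnip3 was absent from that set in 10 of those 12. Of 1900 alternative counts over the gene lists, 1750 stayed within 1.5 times the main count. The fewest reads behind a Bnip3 value were 98, in unstimulated tSema4B cells.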
